A study of Rattus norvegicus with 9 samples.

Results

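The comparison of Sugen-hypoxia at day 28 with normoxia rests on 6 of the 9 RNA sequencing libraries of the series, chosen by their labels alone. All 6 were made from peripheral blood mononuclear cells (PBMC, the lymphocytes and monocytes of blood, here with red cell RNA still present) of wild type Sprague-Dawley rats. The 3 normoxia libraries are from day 0, and the 3 Sugen-hypoxia (SuHx) libraries are from day 28. The other 3 libraries, SuHx at day 56, shared in the estimate of the spread and are given beside day 28 where named. Sugen-hypoxia, a rat model of pulmonary arterial hypertension, pairs the VEGF receptor inhibitor Sugen with chronic low oxygen. No group received the inhibitor or low oxygen alone, and no normoxia library is from day 28, so drug, low oxygen, day and age cannot be told apart. All 3 day 28 libraries carry consecutive codes in the deposited table. Normoxia replicates 2 and 3 also carry consecutive codes, which run on to those of day 56 replicates 2 and 3. That of normoxia replicate 1 stands apart, next to the code of day 56 replicate 1. What these codes stand for is not stated, and it cannot be told apart from day 28, whether set against normoxia or against day 56. Whether replicates were separate animals is not said in the labels, so the p-values rest on a spread between libraries that may be technical.

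The aryl hydrocarbon receptor (AHR), named in the title of the series, is a transcription factor that ligands activate. It pairs with ARNT, binds the GCGTG core of its response elements and switches on detoxifying enzymes together with its own repressor, AHRR. Jun and Fos proteins pair to form AP-1, which with the Egr, Nr4a and some Kruppel-like factors is made within minutes of a stimulus. Tnfaip3 and the Zfp36 and Tob families limit such responses, the first by editing ubiquitin chains in NF-kB signalling and the others by shortening the tails of messenger RNAs.

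Exon reads per library ran from 22148400 to 39947430. Haemoglobin shares are printed with 2 LOC genes within 20 kb of a named haemoglobin gene counted in. Haemoglobin genes took 43.0% to 56.4% of exon reads in the normoxia libraries and 1.43%, 4.84% and 29% in day 28 replicates 1, 2 and 3. Intron reads, the reads inside a gene but outside its annotated exons, made up 14.6%, 6.599% and 5.37% of gene reads in normoxia replicates 1, 2 and 3 and 24.9%, 21.4% and 14.2% at day 28. The groups did not overlap in the haemoglobin share, while in the intron share normoxia replicate 1 stood above day 28 replicate 3. On the first principal component of the 6 libraries, with 58.4% of the variance, normoxia replicate 1 scored -13.8, against 71.0 and 64.2 for the other normoxia libraries and -51.1, -45.2 and -25.0 at day 28. Normoxia replicate 1 and day 28 replicate 3 thus lay between the remaining libraries of the 2 groups on this component. On the second, with 19.1% of the variance, they scored -44.9 and -27.3, against 1.54 to 38.8 for the others. The markers of PBMC were read in every library, with 33 tested T cell markers summing to 3341 to 3674 CPM (reads scaled to a common library total with TMM factors) in normoxia and 2434 to 4105 CPM at day 28.

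**Figure D1:**
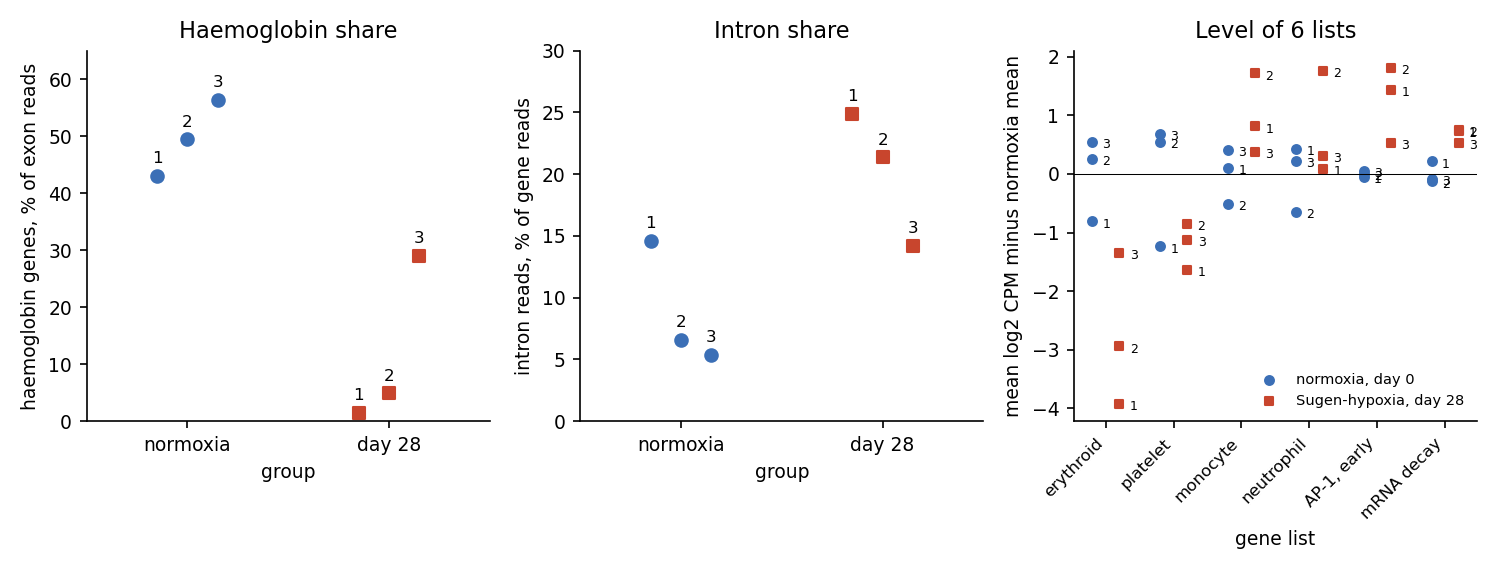
Share of exon reads in haemoglobin genes (left), share of gene reads in introns (middle) and mean log2 CPM of 6 gene lists minus their normoxia mean (right). Each point is 1 library, numbered by replicate. Day 28 replicate 3, at 29% haemoglobin, lies nearest to normoxia in the erythroid list.

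Exon reads called 16 of 12447 tested genes at day 28 (0.129%) with edgeR's quasi-likelihood test at a Benjamini-Hochberg adjusted p under 0.05. Of these, 11 were higher (0.0884% of tested genes) and 5 lower (0.0402%). In all 16 the 3 day 28 values lay outside the 3 normoxia values. Across all tested genes the groups did not overlap in 1420 genes that were higher (11.4%) and in 1469 that were lower (11.8%). A wider separation, with the nearest 2 libraries of the groups at least 2-fold apart, was met by 50 genes that were higher (0.402%) and 70 that were lower (0.562%). The calls depended on single libraries. Without normoxia replicate 1 the test called 2914 genes higher and 2818 lower, and without day 28 replicate 3 it called 164 and 225, whereas leaving out any 1 of the remaining 7 libraries gave 2 to 6 higher and 0 or 1 lower. When the model held each library's haemoglobin share as a covariate (in log2, without the 2 LOC genes), or its intron share, Fam111a was the 1 gene called. Before adjustment 12.1% of tested genes were higher and 16.6% lower at a p under 0.05, and DESeq2 called 771 of 12733 genes higher (6.06%) and 888 lower (6.97%) after adjustment. For lists with 0 calls both counts are given beside the 0, as unadjusted and DESeq2 counts. They pool the 2 directions unless split, and over all tested genes 3582 of 12447 had an unadjusted p under 0.05. Counts of list members are to be read against the shares of all tested genes. These are 0.129% called, 11.4% above normoxia without overlap and 11.8% below.

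The promoters of 4 called genes are shown: Ahrr and the other genes called higher with the smallest p that had a promoter window. Erp27 had none. Each runs from 250 bases before to 50 after the RefSeq transcription start on GRCr8, 5′ to 3′ along the gene. Capitals mark the AHR core GCGTG, the AP-1 site TGANTCA or the cyclic AMP element TGACGTCA, read on both strands.
Ahrr: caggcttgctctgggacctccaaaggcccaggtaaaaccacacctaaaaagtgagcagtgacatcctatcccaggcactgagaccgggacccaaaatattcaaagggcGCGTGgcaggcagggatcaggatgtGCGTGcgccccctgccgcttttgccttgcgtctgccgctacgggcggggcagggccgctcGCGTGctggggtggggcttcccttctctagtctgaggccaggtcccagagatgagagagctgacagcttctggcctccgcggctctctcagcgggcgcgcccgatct
Fam111a: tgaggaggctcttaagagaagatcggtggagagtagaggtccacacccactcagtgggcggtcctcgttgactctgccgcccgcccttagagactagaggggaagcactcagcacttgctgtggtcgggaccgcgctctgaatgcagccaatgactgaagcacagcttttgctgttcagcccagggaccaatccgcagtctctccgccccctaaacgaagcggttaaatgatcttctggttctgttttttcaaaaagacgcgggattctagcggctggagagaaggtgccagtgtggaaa
Klf6: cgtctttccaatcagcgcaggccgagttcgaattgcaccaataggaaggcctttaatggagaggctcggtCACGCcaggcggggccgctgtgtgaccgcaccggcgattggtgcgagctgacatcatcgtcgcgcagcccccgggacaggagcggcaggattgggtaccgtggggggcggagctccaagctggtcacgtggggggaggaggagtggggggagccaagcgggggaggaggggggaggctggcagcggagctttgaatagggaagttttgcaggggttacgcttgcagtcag
Rhob: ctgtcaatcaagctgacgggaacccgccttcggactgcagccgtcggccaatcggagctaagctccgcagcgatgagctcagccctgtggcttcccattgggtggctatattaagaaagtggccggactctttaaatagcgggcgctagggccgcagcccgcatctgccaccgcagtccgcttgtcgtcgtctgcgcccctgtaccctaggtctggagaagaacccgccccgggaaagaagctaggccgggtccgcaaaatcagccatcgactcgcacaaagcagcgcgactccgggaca
These windows are chr1:30821969-30822268 (plus strand) for Ahrr, chr1:219065389-219065688 (plus) for Fam111a, chr17:69458429-69458728 (minus) for Klf6 and chr6:37085155-37085454 (minus) for Rhob. The Ahrr window held 3 copies of the AHR core, beginning 142, 117 and 57 bases before the start, and the Klf6 window held 1. The Fam111a and Rhob windows held none of the 3 motifs. Of the 16 called genes 11 had a window in the table, and 4 of them held the AHR core (Ahrr, Klf6, Tnfaip3 and Phlda1), against 49.8% of the windows of 9154 tested genes. The AP-1 site was in 1 of the 11 (Tnfaip3; 4.71% of tested genes) and the cyclic AMP element in 1 (Cenpw; 3.11%).

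Ahrr had 0 exon reads in each normoxia library, where 3 counts over the whole group would give 0.0450 CPM. At day 28 it had 6.54, 4.54 and 3.52 CPM from 246, 179 and 110 reads. Its mean was therefore at least 108-fold higher at day 28 (edgeR adjusted p = 0.00609). Intron reads of Ahrr were also few in normoxia, with 1, 0 and 2 reads in normoxia against 144, 97 and 61 at day 28 (log2 fold change 5.19, SE 0.65, adjusted p = 0.0161). The gene lies on chromosome 1 at 31603296 to 31698329 (rn6, as are all gene positions below). AHR itself was at 9.91, 11.04 and 10.1 CPM in normoxia and 13.9, 16.1 and 14.9 at day 28, without overlap but not called (Ahr, log2 fold change 0.53, SE 0.17, adjusted p = 0.111).

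Among 15 tested genes of the AHR pathway and its targets, 2 were called higher and 0 lower, and 5 lay above normoxia without overlap and 0 below. Over all tested genes 0.0884% were called higher and 11.4% lay above without overlap, against 33.3% of this list without overlap. The median log2 fold change was 0.38, against -0.0058 over all tested genes. Gpr15, a homing receptor of T cells that is an AHR target, was at 1.71, 1.66 and 2.01 CPM in normoxia and 10.2, 5.59 and 6.27 at day 28. It was the second member called (log2 fold change 2.04, SE 0.28, adjusted p = 0.0450). Nqo1, a quinone reductase under both AHR and NRF2, rested at 3.29, 3.75 and 6.10 CPM in normoxia and 20, 28.8 and 12.3 at day 28 (adjusted p = 0.0534). Tiparp, a PARP enzyme that AHR induces and that restrains it, was at 17.0, 26.6 and 27.4 CPM against 42.6, 37.4 and 43.9 (exon adjusted p = 0.103). By intron reads Tiparp passed, with a log2 fold change of 1.58 (adjusted p = 0.0359). This intron call held in 4 of 9 fits with 1 library left out. Too few reads for a test came from the classical targets Cyp1a1 and Cyp1b1. Over the 3 libraries of a group Cyp1a1 had 2 reads in normoxia and 20 at day 28, and Cyp1b1 had 1 and 8. Among the 13 tested members that were not called, Hsp90aa1, a chaperone that holds AHR in the cytosol, and Slc7a5 had values below 0 (-0.29 and -0.13).

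Fam111a, a protease of DNA replication and antiviral defence, separated the groups by the widest margin among tested genes with a mean of at least 5 CPM in the higher group. It was at 1.42, 3.31 and 4.48 CPM in normoxia and 158, 125 and 246 at day 28, so that the lowest day 28 library was 27.9 times the highest normoxia library. Its log2 fold change was 5.86 (SE 0.53, adjusted p = 0.00609) by exon reads and 5.25 (adjusted p = 0.0176) by intron reads. Erp27, a protein of the endoplasmic reticulum that binds misfolded proteins, was at 2.75, 4.01 and 3.18 CPM in normoxia and 52.6, 36.6 and 38.2 at day 28. The 3 libraries within each group were close together, and the log2 fold change was 3.67 (SE 0.35, adjusted p = 0.00609). Intron reads of Erp27 changed by 2.37 (adjusted p = 0.0135), less than its exon reads (difference -1.32, adjusted p = 0.0115 in a model of both readouts). Fam111a and Ahrr kept their calls without each of the 9 libraries in turn. Erp27 lost its call without normoxia replicate 3 (adjusted p = 0.0611).

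**Figure D2:**
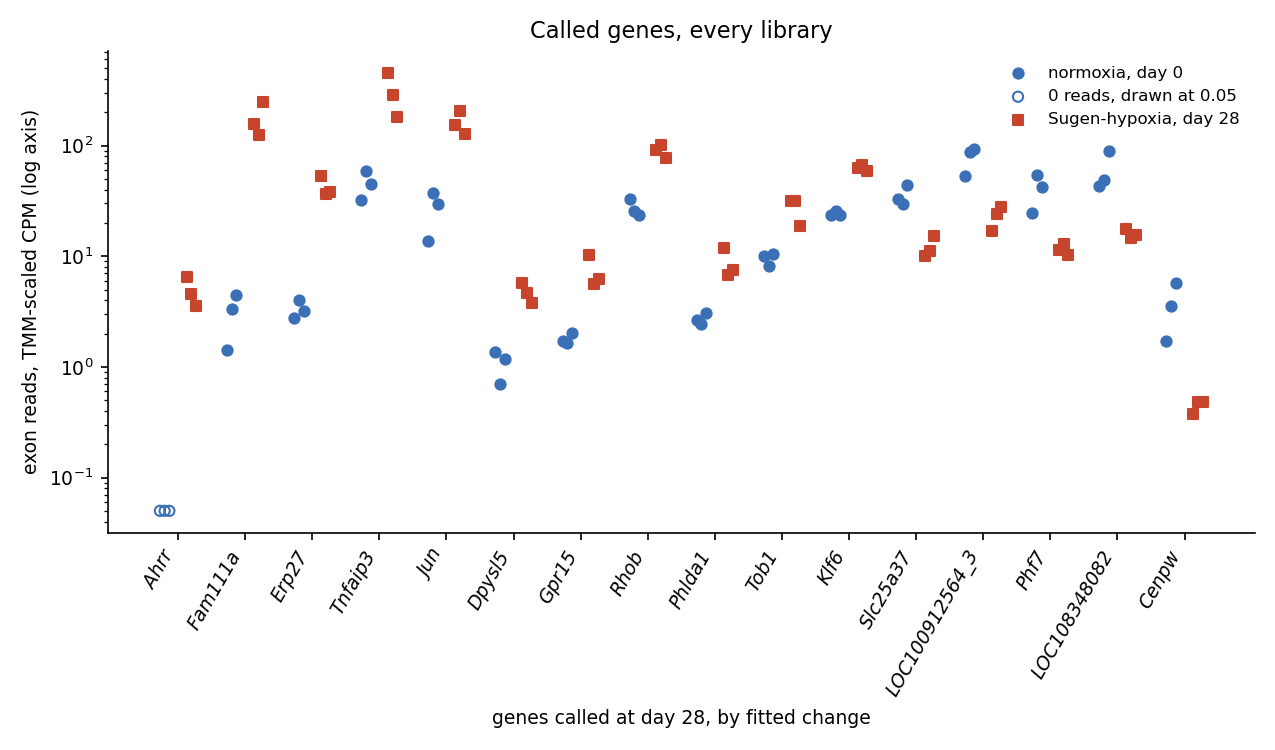
Exon CPM of the 16 called genes in each normoxia and day 28 library, on a log axis. Points are single libraries. The 3 normoxia points of Ahrr, with 0 reads, are drawn at 0.05 as open circles, and in every gene the 2 groups occupy separate ranges.

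Jun, Rhob, Klf6 and Phlda1 were among the other 8 genes called higher. Jun, a subunit of AP-1, was at 13.8, 37.4 and 29.7 CPM in normoxia and 154, 205 and 128 at day 28. The log2 fold change of Jun was 2.59 (SE 0.35, adjusted p = 0.0450), and its intron count, the reads beyond the annotated exon, rose by 2.20 (adjusted p = 0.0372). Rhob, a small GTPase of the endosome, went from 32.8, 25.6 and 23.7 CPM to 91.8, 102 and 78.0 (log2 fold change 1.73, SE 0.18, adjusted p = 0.00808). Klf6, a zinc finger transcription factor, was close together within each group, with 23.7, 25.5 and 23.8 CPM in normoxia and 63.05, 66.3 and 59.0 at day 28. Its exon reads rose by 1.37 (SE 0.14, adjusted p = 0.00609), while its intron reads gave 0.14 (adjusted p = 0.820). Phlda1, a PH-like domain protein induced by growth factors, rose from 2.67, 2.43 and 3.05 CPM to 11.8, 6.75 and 7.48 (log2 fold change 1.68, SE 0.24, adjusted p = 0.0464). Klf6 lost its call without normoxia replicate 3 (adjusted p = 0.0611) or day 28 replicate 1 (0.0598). Rhob lost it when normoxia replicate 2 (0.0704) or 3 (0.0686) was left out, and without day 28 replicate 1 (0.0666).

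Of 32 tested AP-1 and immediate-early genes, 2 were called higher (Jun and Rhob) and 0 lower. Without overlap, 18 lay above normoxia and 0 below, against 11.4% and 11.8% of all tested genes. The median log2 fold change of the list was 1.11, and 0.41 with the haemoglobin share as a covariate. The day 28 libraries were uneven here, and in 15 of the 18 genes replicate 3 was the one nearest to normoxia, against 56.8% of the 1420 genes that lay above normoxia without overlap. Fosb, an AP-1 subunit, was at 1.67, 4.27 and 2.40 CPM in normoxia and 36.8, 57.0 and 11.9 at day 28 (log2 fold change 3.65, SE 0.55, adjusted p = 0.0534). It passed by intron reads (3.03, adjusted p = 0.0398), as did Fosl2 (2.92, adjusted p = 0.0428) and Csrnp1 (1.66, adjusted p = 0.0283). Each of these intron calls held in 2 of 9 fits with 1 library left out. Fos reached 238, 426 and 94.2 CPM against 11.4, 36.5 and 57.6, and was not called (adjusted p = 0.0731). Egr1 overlapped between the groups, with 3.25, 5.82 and 10.1 CPM in normoxia and 29.6, 53.6 and 6.08 at day 28. Jund, Batf, Maff and Egr3 overlapped as well, with log2 fold changes of 0.22, -0.13, 0.02 and 0.10.

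Tnfaip3, the A20 inhibitor of NF-kB, was also uneven at day 28, with replicate 1 highest and replicate 3 lowest. It was at 32.0, 59.4 and 44.6 CPM in normoxia and 456, 287 and 182 at day 28 (log2 fold change 2.77, SE 0.36, adjusted p = 0.0450). Of 21 tested NF-kB subunits and feedback inhibitors it was the 1 called. Without overlap 7 lay above normoxia (33.3%, against 11.4% of all tested genes) and 0 below. The list median was 0.33 (0.19 in a model holding the haemoglobin share, 0.14 in one holding the intron share). Nfkbiz, an inducible nuclear cofactor of NF-kB, had 38.9, 36.9 and 46.1 CPM against 127, 196 and 69.8 (adjusted p = 0.0597). Tob1, which recruits the deadenylase that shortens messenger RNA tails, rose from 9.95, 8.21 and 10.4 CPM to 31.8, 31.9 and 18.9 (log2 fold change 1.53, SE 0.22, adjusted p = 0.0464). Of 20 tested regulators of mRNA decay, Tob1 alone was called, 12 lay above normoxia without overlap (60%) and 0 below, and the median was 0.66 (0.40 and 0.17 with these covariates). Zfp36, which binds AU-rich elements of cytokine messages, had 88.6, 126 and 130 CPM against 511, 652 and 216 (adjusted p = 0.0556). The cytokine and chemokine list had 0 calls among 18 tested genes (12 unadjusted, 7 by DESeq2). Of the 12, 10 were higher and 2 lower, and of the 7, 6 were higher and 1 lower. Without overlap 6 lay above normoxia (33.3%) and 2 below (11.1%, against 11.8% of all tested genes). Its median was 1.28 (0.55 with the haemoglobin share as a covariate, 0.76 without day 28 replicate 2). Its members Tnf, Il6 and Il1a had too few reads to test: Tnf had 0 reads in normoxia and 2 at day 28, and Il6 had 22 and 21.

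Further regulators lay higher without being called. Of 9 tested MAP kinase phosphatases, which switch off ERK, JNK and p38, 4 lay above normoxia without overlap (44.4%, against 11.4% of all tested genes) and 0 below. Their median was 0.72 (0.34 with the intron share as a covariate), with 0 calls (7 unadjusted, 4 by DESeq2). Dusp1 was at 61.8, 140 and 161 CPM in normoxia and 625, 540 and 321 at day 28 (adjusted p = 0.0556). Dusp10 overlapped by exon reads (0.31, adjusted p = 0.362) but passed by intron reads (2.10, adjusted p = 0.0208), and the 2 changes differed (adjusted p = 0.0231). Its intron call held in 4 of 9 fits with 1 library left out. Of 13 Kruppel-like factors, Klf6 was called, 6 (46.2%) lay above normoxia without overlap, and 1 (7.69%), the erythroid factor Klf1, lay below. Klf9, which glucocorticoids induce, was at 16.6, 8.69 and 8.96 CPM against 44.4, 21.8 and 49.1 (adjusted p = 0.0618), and by intron reads it had the smallest p of all genes (2.13, SE 0.24, adjusted p = 0.0135). Among 17 glucocorticoid response genes 7 lay above without overlap (41.2%) and 0 below (median 0.84), with 0 called (8 unadjusted, 6 by DESeq2). Tlr5, the receptor of flagellin, separated widely at 3.62, 1.07 and 2.40 CPM against 11.4, 17.9 and 12.3 (adjusted p = 0.0534), and passed by intron reads (4.55, adjusted p = 0.0407). The intron call of Tlr5 held in 2 of 9 fits with 1 library left out. Dpysl5, a protein of growing nerve fibres, was called (2.13, SE 0.32, adjusted p = 0.0464), but 11.7% of its exon reads were unique, and with uniquely mapped reads Dpysl5 was not called (2.36, adjusted p = 0.0826).

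Genes tied to pulmonary hypertension gave no calls. Of 28 tested BMP and TGF-beta genes 0 were called (14 unadjusted, 13 of them higher, and 9 by DESeq2, 8 of them higher). Without overlap 11 lay above normoxia (39.3%) and 1 below (3.57%), and the median was 0.53. This median was 0.12 with the intron share as a covariate, 0.96 without normoxia replicate 1 and 0.33 without normoxia replicate 3. Id2 and Id1, inhibitors of differentiation that BMP signals induce, were above normoxia without overlap. Id2 was at 52.0, 29.6 and 58.3 CPM against 142, 158 and 78.5 (adjusted p = 0.0734), and Id1 at 2.00, 1.40 and 2.40 against 5.74, 12.9 and 3.20 (adjusted p = 0.0907). Id3, of the same family, was below, at 39.02, 30.8 and 22.3 CPM against 15.3, 15.9 and 17.0 (adjusted p = 0.0892). Of 13 tested genes of inherited pulmonary hypertension 0 were called (5 unadjusted, 2 by DESeq2), and the groups did not overlap in Smad1 and Acvrl1 (higher) and in the water channel Aqp1 (lower), shares of 15.4% and 7.69% against 11.4% and 11.8% of all tested genes. Their median of 0.40 was 0.01 with the intron share as a covariate, 0.64 without normoxia replicate 1 and 0.17 without normoxia replicate 3. Among 28 oxygen-sensing genes and HIF targets 0 were called (12 unadjusted, 9 of them higher, and 5 by DESeq2, 3 of them higher). Without overlap 6 lay above (21.4%) and 2 below (7.14%), and the median was 0.20. The HIF median was -0.06 with the haemoglobin share as a covariate, 0.12 without day 28 replicate 1 and 0.08 without day 28 replicate 2. Vegfa stood at 0.54, 0.26 and 0.32 CPM in normoxia and 1.25, 1.57 and 0.80 at day 28 (adjusted p = 0.0894).

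Transcripts of red cells lay lower at day 28. Slc25a37, mitoferrin, which carries iron into mitochondria for haem, was at 32.8, 29.5 and 44.3 CPM in normoxia and 9.97, 11.1 and 15.3 at day 28 (log2 fold change -1.55, SE 0.21, adjusted p = 0.0459). Of 39 tested erythroid markers it was the 1 called lower, with 0 called higher. Without overlap 31 lay below normoxia (79.5%, against 11.8% of all tested genes) and 0 above, and the median was -2.53. As a covariate the haemoglobin share brought the erythroid median to -0.83 and the intron share to -0.77, and without day 28 replicate 3 it was -4.12. The summed erythroid level was 115700 to 279100 CPM in normoxia and 2901 to 66800 at day 28. Replicate 3 was the day 28 library nearest to normoxia in 28 of the 31. Ahsp, the chaperone of alpha-globin, had 107, 803 and 952 CPM in normoxia and 2.87, 13.8 and 76.5 at day 28 (exon adjusted p = 0.0892; intron log2 fold change -5.52, adjusted p = 0.0407). Tspo2, an erythroid membrane protein, was at 0.87, 2.98 and 3.83 CPM against 0, 0.13 and 0.096 (exon adjusted p = 0.0534, intron -5.19, adjusted p = 0.0210). With 1 library left out, the intron call held in 2 of 9 fits for Ahsp and in 4 for Tspo2. In these bulk samples fewer red cells and less RNA per red cell cannot be told apart.

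The other lower calls were of mixed kind. Phf7, a PHD finger protein, was at 24.7, 54.4 and 42.0 CPM in normoxia and 11.3, 12.9 and 10.3 at day 28 (log2 fold change -1.81, SE 0.27, adjusted p = 0.0464). Cenpw, a subunit of the inner kinetochore, was at 1.71, 3.57 and 5.78 CPM against 0.37, 0.48 and 0.48 (-3.03, SE 0.45, adjusted p = 0.0464). Of 43 tested cell cycle and replication genes Cenpw was the 1 called. Without overlap 8 lay below normoxia (18.6%) and 2 above (4.65%), against 11.8% and 11.4% of all tested genes. The list median was -0.24 (-0.07 with the intron share as a covariate, -0.38 without normoxia replicate 1 and -0.45 without day 28 replicate 2). LOC100912564_3 was at 52.6, 88.2 and 92.3 CPM against 16.8, 24.04 and 27.6 (-1.77, SE 0.26, adjusted p = 0.0464). LOC108348082 gave -1.91 (SE 0.28, adjusted p = 0.0464), but unique mapping held for 0.494% of its exon reads, so they may belong to a copy elsewhere. The 5 lower genes, together with Tnfaip3, Jun, Gpr15, Phlda1, Tob1 and Dpysl5, are the 11 that kept their calls without normoxia replicate 1 or without day 28 replicate 3 and lost them when any 1 of the remaining 7 was left out, at an adjusted p of 0.0510 to 0.170.

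The 10 genes with the next smallest p had an adjusted p of 0.0534, which genes behind them also had. Fosb, Nqo1, the phospholipid flippase Atp10a and the aldehyde dehydrogenase Aldh2 had values above normoxia. Tspo2, Cmtm4, Isg20, Calhm6, Plekho1 and Bbs10 had values below it. Aldh2 was at 44.4, 35.8 and 42.2 CPM against 73.6, 113 and 84.5. Isg20, an exonuclease induced by interferon, was at 18.4, 35.7 and 45.4 CPM against 4.57, 4.72 and 9.18. The 36 tested interferon-stimulated genes, Isg20 included, had 0 calls (10 unadjusted, 4 by DESeq2) and a median of 0.01 (below 0 under 4 of 23 alternatives, among them upper-quartile factors). Before adjustment 4 of the 36 were higher and 6 lower, against 12.1% and 16.6% of all tested genes. Without overlap 2 lay above (5.56%) and 3 below normoxia (8.33%), against 11.4% and 11.8% of all tested genes. The lower genes with the widest separation were Plekhb1, Lgals5, Hba-a3, AABR07065789.1, Tinagl1 and Hist3h2ba, none of them called. Plekhb1 was at 22.3, 6.74 and 65.8 CPM in normoxia and 0.77, 0.43 and 1.70 at day 28 (log2 fold change -5.04, adjusted p = 0.0534). Lgals5, a galectin of rat reticulocytes, was at 582, 759 and 2174 CPM against 19.6, 92.2 and 174 (adjusted p = 0.0696).

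The medians of the other blood cell markers lay above or below 0 to different degrees. Platelet markers had a median of -1.50 over 29 tested genes (0.21 with the intron share as a covariate) and 0 calls (28 unadjusted, 22 by DESeq2). Of the 28, 27 were lower and 1 higher, and of the 22, 21 were lower and 1 higher. Without overlap 4 lay below normoxia (13.8%) and 1 above (3.45%), against 11.8% and 11.4% of all tested genes. The summed platelet level was 1738, 6997 and 7561 CPM in normoxia replicates 1, 2 and 3 and 1358 to 2289 at day 28. Normoxia replicate 1 thus lay within the day 28 range. Monocyte markers had a median of 1.08 over 29 genes and 0 calls (16 unadjusted, 13 by DESeq2), with 11 above (37.9%) and 0 below without overlap. The monocyte median was 0.57 in a model holding the haemoglobin share, 0.64 in one holding the intron share and 0.63 without day 28 replicate 2. Csf1r, the receptor of macrophage growth factor, was at 399, 132 and 301 CPM in normoxia and 713, 1008 and 468 at day 28 (adjusted p = 0.101). The summed monocyte level was 3109 to 6043 CPM in normoxia and 4632 to 13850 at day 28, and Ctss and Lyz2 overlapped between the groups. Neutrophil markers (14 tested, median 1.02, 0 called, 4 unadjusted, 2 by DESeq2) summed to 107, 50.5 and 104 CPM in normoxia and 111, 302 and 120 at day 28. Without day 28 replicate 2 the neutrophil median was 0.09, and a model that held the intron share gave 0.40. The granule genes Mpo, Elane and Prtn3 had 6, 1 and 1 reads in all of normoxia and 16, 0 and 0 at day 28. T cell and B cell markers had medians of -0.10 and -0.44 and 0 calls each (6 unadjusted and 3 by DESeq2 for T cells, 6 and 2 for B cells). Of 33 T cell markers 1 was higher and 5 lower before adjustment, and of 24 B cell markers 0 and 6. Over all tested genes these shares were 12.1% and 16.6%. The T cell median was above 0 with the haemoglobin or intron share as a covariate and without normoxia replicate 1 or day 28 replicate 2. With these covariates the B cell median was -0.85 and -0.90, and without normoxia replicate 2 it was -0.26. Endothelial and stromal markers gave 0 calls over 9 tested genes (4 unadjusted, 2 by DESeq2), with 2 above (22.2%) and 0 below without overlap and a median of 0.62 (-0.09 without the filter on low counts). They summed to 446 to 701 CPM in normoxia and 717 to 1603 at day 28, without overlap, but a sum rests mostly on members with many reads. The mean log2 CPM of these members overlapped, at 1.45, 1.57 and 2.03 in normoxia and 2.26, 2.30 and 1.62 at day 28. Of the genes that define these cells, Cdh5 and Col1a1, of endothelium and fibroblasts, had 13 and 11 reads in all of normoxia and 20 and 8 in all of day 28. No gene of these lists other than Slc25a37 was called by exon reads. The part of these cell types in the immediate-early, NF-kB and AHR results was not tested.

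Gene lists of the translation and energy machinery had medians below 0. The medians were -0.82 for 72 cytosolic ribosomal protein genes, -0.80 for 74 nuclear oxidative phosphorylation genes, -0.61 for 72 mitochondrial ribosomal protein genes and -0.59 for 34 proteasome subunits, with 0 called in each list. Without overlap 0 of 72, 9 of 74, 7 of 72 and 3 of 34 lay below normoxia and 0 above, against 11.8% below over all tested genes. Unadjusted counts were 31, 46, 36 and 17, all lower, and DESeq2 counts were 5, 22, 14 and 5. In a model that also held the intron share, these medians were 0.20, 0.01, -0.0057 and 0.09. Normoxia replicate 1 did not share the high normoxia level. The cytosolic ribosomal list had a mean log2 CPM of 8.22 in normoxia replicate 1, 9.48 and 9.55 in the other normoxia libraries, and 8.47 to 8.59 at day 28. Splicing factors (65 genes) had a median of -0.03, with 5 above (7.69%) and 6 below normoxia (9.23%) without overlap. Zinc finger genes of the Zfp series (196 genes) had a median of -0.08 (0.04 without normoxia replicate 1), with 17 above (8.67%) and 41 below (20.9%), against 11.4% and 11.8% of all tested genes.

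**Figure D3:**
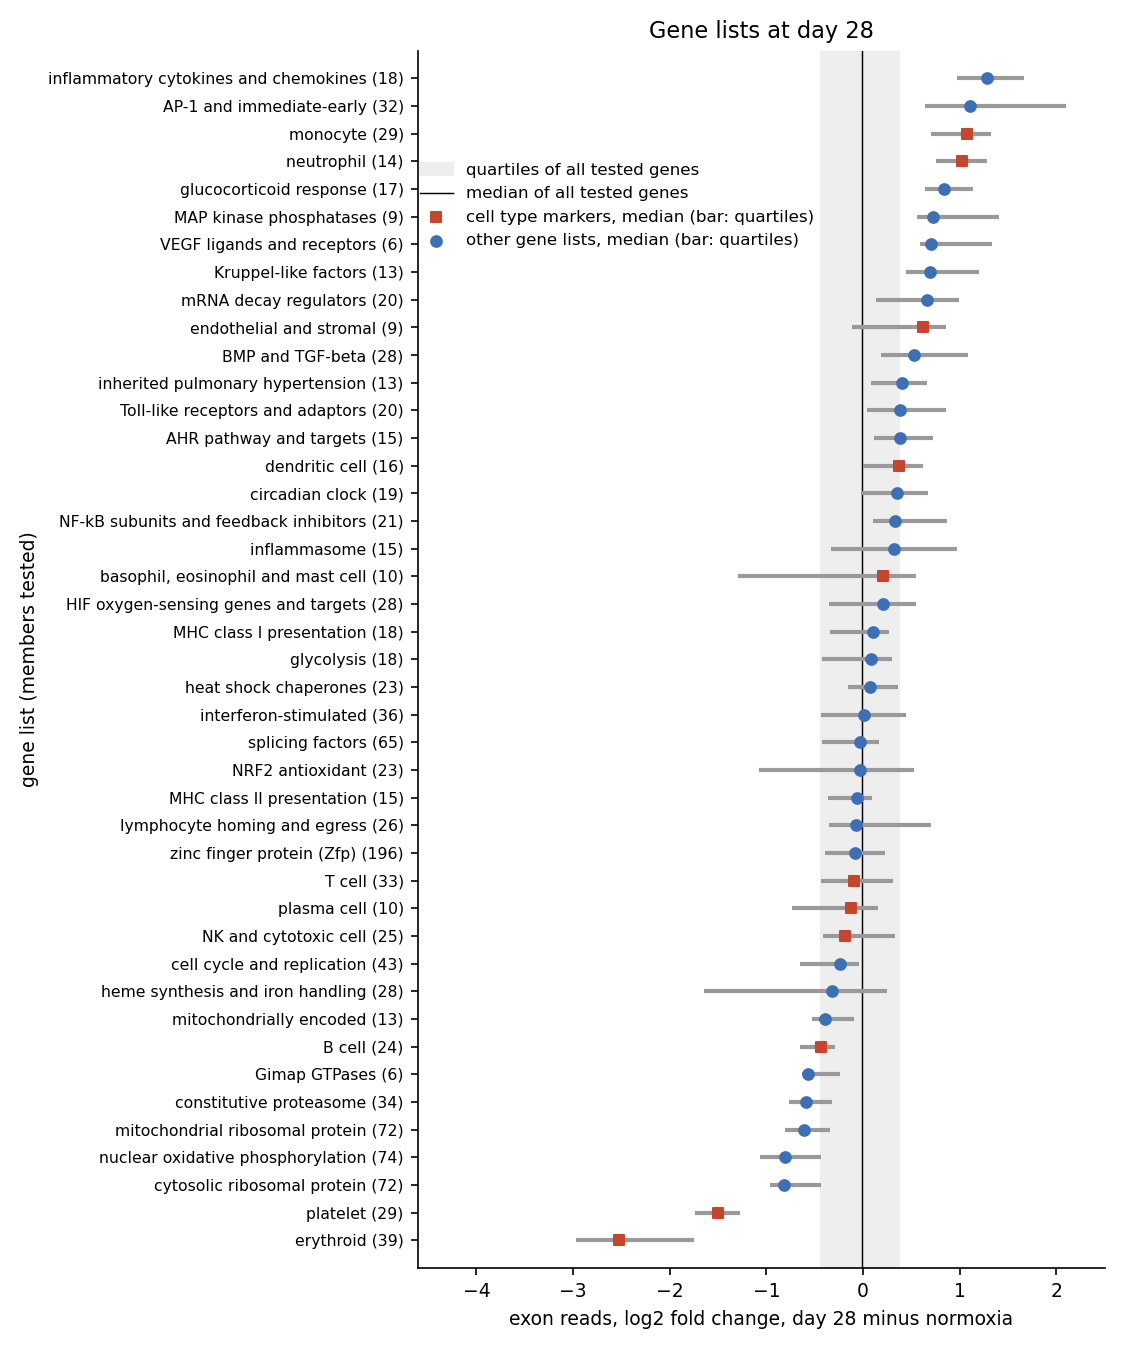
Median log2 fold change of exon reads, day 28 minus normoxia, for each gene list with the number of tested members, bars giving the quartiles. The grey band holds the quartiles of all tested genes. Erythroid and platelet markers lie lowest, at -2.53 and -1.50, and cytokines and immediate-early genes highest, at 1.28 and 1.11.

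Intron reads, which unspliced transcripts give and which reads of unannotated exons or of overlapping genes can add to, served as a second readout. This readout comes from the same libraries and is not independent of the exon reads. Intron reads called 97 of 11713 tested genes higher (0.828%) and 89 lower (0.76%). In every one of these genes the intron CPM of the groups did not overlap. Intron CPM is relative to all intron reads of a library, whose share of gene reads differed between the groups as given above. Exon reads were tested for 175 of the 186 genes and had the same sign in 158. Some agreement follows from the shared libraries, and the share with the same sign over all genes was not taken. Among the 97 higher genes 81 had the same sign by exon reads, and among 78 lower genes tested by exon reads 77 did. Called by both readouts were 5 genes: Fam111a, Erp27, Ahrr, Jun and Dpysl5. With 1 library left out, the intron call held in 7 of 9 fits for Fam111a and Ahrr. It held in 6 for Erp27 and in 2 for Jun and Dpysl5. The count was 3103 without normoxia replicate 1, 1436 without day 28 replicate 3, 0 without day 28 replicate 1, 1 without normoxia replicate 2 and 12 to 36 when any 1 of the 5 others was left out. With day 28 replicate 1 left out, where edgeR called 0 genes, 2151 had an unadjusted p under 0.05, against 3191 with all 9 libraries.

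The genes with the smallest intron p, picked after their values were seen, had both directions. With 1 library left out, the calls of Cln8, Rpl7 and Emcn held in 7 of 9 fits. That of Dnaaf2 held in 6, and those of Rasgef1b and Cd79b in 4. Cln8, a membrane protein of the endoplasmic reticulum, had 8.69, 10.8 and 10.1 intron CPM in normoxia and 40.7, 36.5 and 27.5 at day 28 (1.84, adjusted p = 0.0135). Dnaaf2, a dynein assembly factor, had 16.4, 12.3 and 11.5 against 55.7, 38.0 and 53.7 (1.83, adjusted p = 0.0176). Rasgef1b, an exchange factor of Ras-family GTPases, had 36.7, 47.8 and 38.1 against 149, 167 and 88.8 (1.73). Lower were Cd79b, the signalling chain of the B cell receptor, with 120, 269 and 190 intron CPM against 48.2, 54.2 and 42.9 (-1.99, adjusted p = 0.0208), and Rpl7, a ribosomal protein gene, with 189, 262 and 240 against 68.5, 92.7 and 67.95 (-1.59, adjusted p = 0.0135). Emcn, an endothelial sialomucin, had 19.5, 13.9 and 12.9 against 2.82, 2.75 and 2.64 (-2.50). Its exon reads were too few to test, 7 in normoxia and 3 at day 28 over 3 libraries each.

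Exon and intron changes differed from each other in 232 of 10996 genes tested by both. In 162 (1.47%) the intron change was above the exon change, and in 70 (0.637%) it was below. The first kind were mostly genes with lower exon reads at day 28: 143 of the 162 had an exon change below 0, with a median exon change of -0.68 and a median intron change of 0.61. Slc25a37 had the smallest p, with an exon change of -1.55 and an intron change of 0.04 (difference 1.58, SE 0.18, adjusted p = 0.0110). Of 32 erythroid markers tested by both readouts 4 were of this kind, Slc25a37, Epb41, Fech and Add2. Epb41, protein 4.1 of the red cell skeleton, was at 440, 370 and 423 exon CPM in normoxia and 137, 134 and 275 at day 28, with an intron change of 0.21. Fech, ferrochelatase, the last enzyme of haem synthesis, was at 312, 440 and 646 exon CPM against 11.8, 27.5 and 166, with an intron change of -0.44. No such difference was called for Hba-a3, an alpha-globin gene, which changed by -3.68 in exon and -4.43 in intron reads (adjusted p of the difference 0.239). Tubb2a, a beta-tubulin, had changes of opposite sign, -1.53 by exon and 2.17 by intron reads (adjusted p of the difference 0.0110). Of the second kind were Erp27, given above, and Aldh2 (1.15 by exon, -0.41 by intron reads, adjusted p of the difference 0.0233). Counts of unequal genes ran from 1 without day 28 replicate 1 to 3229 without normoxia replicate 1, with 6 when normoxia replicate 2 or 3 was left out, 14 without day 28 replicate 2, 39 to 58 without any 1 day 56 library and 692 without day 28 replicate 3.

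**Figure D4:**
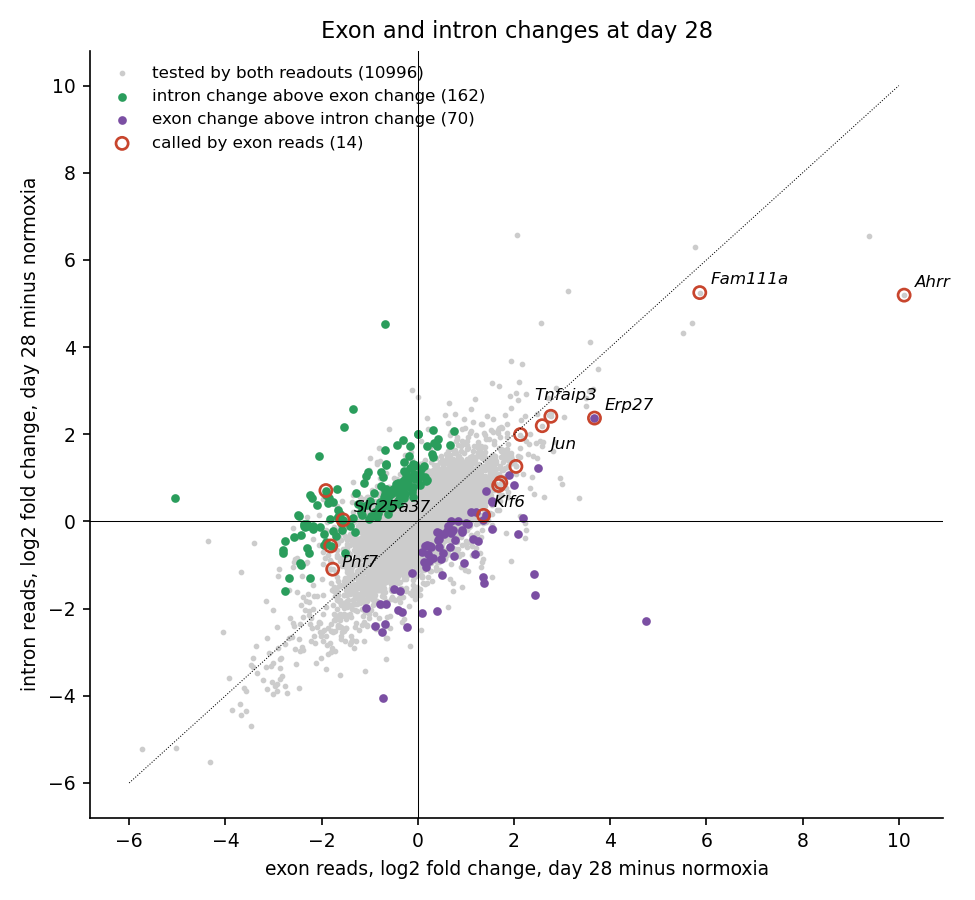
Log2 fold change of intron reads against that of exon reads, day 28 minus normoxia, for 10996 genes. Green and purple points are the 162 and 70 genes whose changes differed, red rings mark genes called by exon reads, and the dotted line is equality. The exon value of Ahrr is fitted against 0 reads and depends on the prior count. Slc25a37 sits at -1.55 and 0.04.

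The day 56 libraries share the normoxia controls with day 28, so the 2 sets of changes are not independent and are given side by side. Ahrr had 3.21, 5.59 and 3.95 CPM at day 56, Fam111a 116, 117 and 52.6, and Erp27 65.4, 28.7 and 67.1. Gpr15 had 6.83, 8.28 and 6.47 CPM, and its log2 fold changes were 2.04 at day 28 and 2.01 at day 56. Klf6 stood at 84.0, 96.0 and 94.2 CPM at day 56, a change of 1.91, and Tnfaip3 at 819, 693 and 862, a change of 4.13. The direct contrast of day 56 with day 28 called neither (adjusted p = 0.0949 and 0.0960). Phlda1 was higher at day 56 than at day 28, with 30.5, 24.5 and 25.4 CPM (difference 1.63, SE 0.23, adjusted p = 0.0291). Of the 5 genes lower at day 28, 4 were higher at day 56 than at day 28. These genes were picked for low values in the same day 28 libraries that this contrast uses. Part of a move back toward normoxia therefore follows from the choice, and recovery over time was not tested. Phf7 had 34.3, 38.7 and 43.4 CPM (difference 1.75, SE 0.27, adjusted p = 0.0325), Slc25a37 28.98, 31.8 and 29.99 (1.32, SE 0.21, adjusted p = 0.0330), Cenpw 2.05, 2.86 and 2.88 (2.54, SE 0.44, adjusted p = 0.0448) and LOC108348082 52.1, 69.3 and 74.7 (2.03, SE 0.28, adjusted p = 0.0285). The fifth, LOC100912564_3, had 37.7, 47.1 and 41.1 CPM (0.88, adjusted p = 0.119). Haemoglobin took 40.6% to 44.6% of exon reads at day 56; its part in these differences was not tested.

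**Figure D5:**
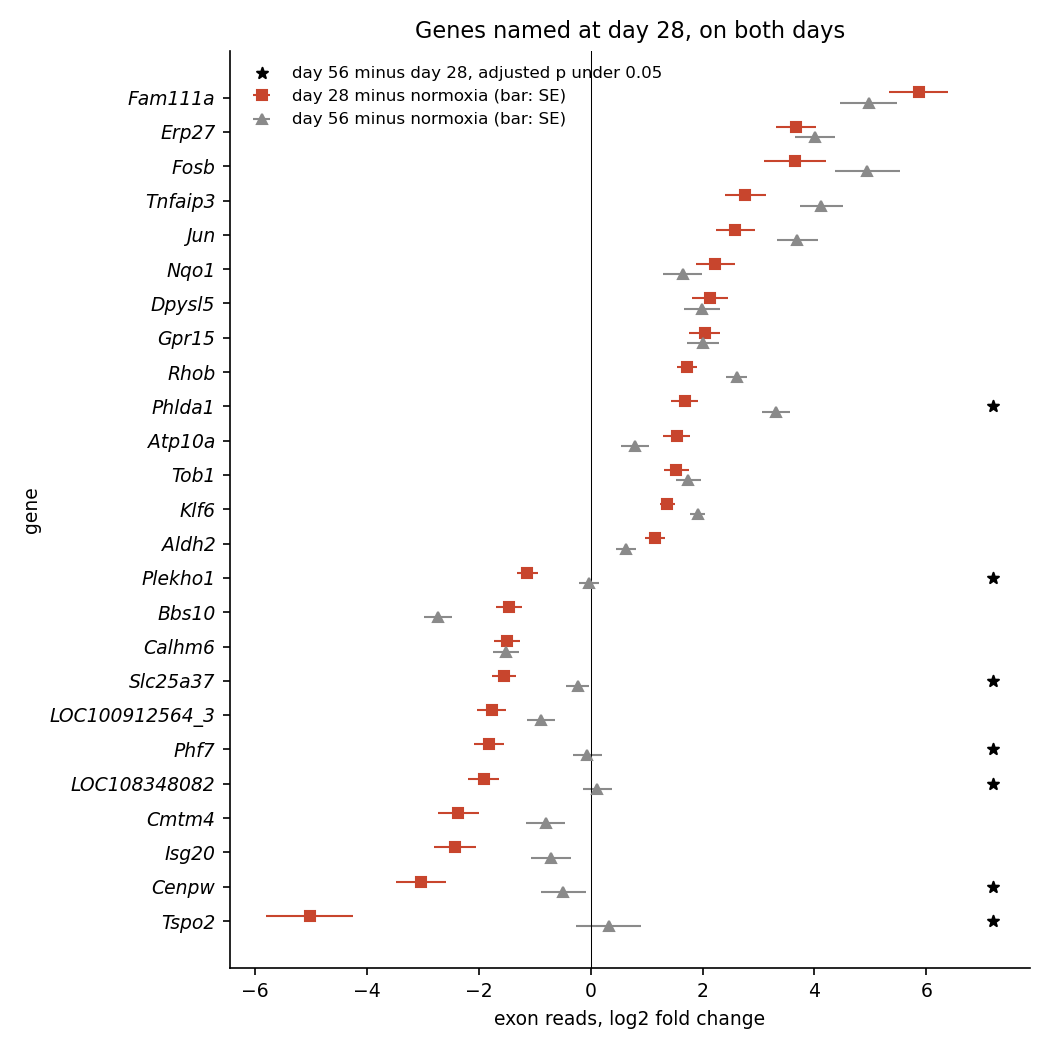
Log2 fold change against normoxia at day 28 (squares) and day 56 (triangles) for the called genes and the 10 with the next smallest p, without Ahrr, bars giving the SE. Stars mark genes whose changes on the 2 days differed at an adjusted p under 0.05, Phlda1 and Slc25a37 among them.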

How the data were processed

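The authors deposited 1 table for the series; per the file headers it holds, per Ensembl gene and library, exon reads as raw counts (multi-mapped reads included), uniquely mapped exon reads and exon plus intron reads. In replicate 1 columns the deposited uniquely mapped reads are formally estimated counts, as fractions stand on broken lines. Per the submitters' processing notes, the build was rn6 and FastQC was used; the aligner is not given in the sources used here, nor is strand. Of 22085 lines, 22077 were intact, and 99 columns of values per sample were not used.

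Intron reads were taken as gene minus exon reads. Each SE is the absolute log2 fold change divided by the square root of the test's F statistic. Tests were edgeR 4.0.16 (R 4.3.3; robust glmQLFit, glmQLFTest, TMM, filterByExpr) with 1 mean per group over 9 libraries, Benjamini-Hochberg adjusted over all tested genes at 0.05, and 1 model of both readouts for intron against exon changes. Scripts were tested on simulated data. Median and counts describe lists; no list was tested. Depth was 22148400 to 39947430 exon reads; limits cover counting error only. No 2 libraries within normoxia or within day 28 agreed within sampling noise; other pairs were not compared.

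The comparison, lists and tests were chosen with earlier results of these data known. Named genes were all called genes, the 10 next by p, the 6 with the widest separation each way at a mean of at least 5 CPM in the higher group, in each list described the 3 with most CPM or the smallest p, and 7 AHR genes (Nqo1, Tiparp, Cyp1b1, Cyp1a1, Ahrr, Arnt and Ahr); others were named after their values were seen. Lists were matched by exact symbol. Promoters are RefSeq's (GRCr8), matched by symbol. Alternatives were other scaling, filters, DESeq2 1.42.0, uniquely mapped reads, covariates, blocks and libraries left out.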

Additional observations from a re-analysis of the deposited data

Results flagged for a closer look

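Of the genes named at day 28, 8 had a change from normoxia that differed between day 28 and day 56 (edgeR contrast of day 56 with day 28, adjusted p under 0.05 over all tested genes; 68 genes passed in all). Higher at day 56 than at day 28, in log2 units, were Tspo2 by 5.34 (adjusted p = 0.0291), Cenpw by 2.54 (0.0448), LOC108348082 by 2.03 (0.0285), Phf7 by 1.75 (0.0325), Phlda1 by 1.63 (0.0291), Slc25a37 by 1.32 (0.0330) and Plekho1 by 1.10 (0.0357). Dusp6, a phosphatase of ERK, was lower, with a difference of -1.25 (adjusted p = 0.0291): its CPM was 62.6, 45.4 and 65.7 in normoxia, 89.6, 92.5 and 89.9 at day 28 and 38.5, 43.7 and 31.8 at day 56. In each of the 8 genes the 3 day 56 values lay outside the 3 day 28 values. Tspo2, Plekho1 and the called genes were picked by day 28 values that this contrast reuses. Part of a move back toward normoxia therefore follows from the choice. Groups of 3 are too small for the check of single libraries that stand apart.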

How the results depend on the processing

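Counts of genes higher and lower by exon reads, 11 and 5 as reported, were 8 and 0 with RLE factors, 31 and 48 with upper-quartile factors, 59 and 92 without the filter, 29 and 43 with uniquely mapped reads, 2 and 0 with only the 6 libraries, 771 and 888 with DESeq2, and 3058 and 2817 with normoxia replicate 1 and day 28 replicate 3 left out together. They were 1 and 0 with the haemoglobin share (also with 2 further LOC genes, chosen after seeing the data) or the intron share as a covariate. Leaving out 1 library gave 2 to 2914 higher and 0 to 2818 lower, 0 to 3103 calls by intron reads and 1 to 3229 genes with unequal changes. The cause was not tested. With the replicate block the counts were 52 and 171, and 373 by intron reads. Same-numbered libraries of the 2 groups deviated together with r = 0.17, -0.06 and -0.06, so the number alone does not pair them. Without the filter intron reads called 343 genes. All 16 calls kept their sign under the 23 alternatives, or 22 for LOC108348082. Fam111a was called under all 23. Ahrr was lost with only the 6 libraries (adjusted p = 0.0832), the haemoglobin share (0.0650) and the intron share (0.102). With 3 libraries a group and 1.43% to 56.4% of reads in haemoglobin genes, weakly read genes such as Cyp1a1 could not be compared.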

Other observations

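Antioxidant genes that NRF2 controls went both ways at day 28. Of 23 tested, edgeR called 0 (13 at an unadjusted p under 0.05, 9 by DESeq2). Of the 13, 5 were higher and 8 lower, and of the 9, 3 were higher and 6 lower. Without overlap 4 lay above normoxia (17.4%) and 5 below (21.7%), against 11.4% and 11.8% of all tested genes. Txnrd1, thioredoxin reductase, was at 27.4, 20.7 and 24.9 CPM in normoxia and 57.3, 62.4 and 42.4 at day 28 (edgeR adjusted p = 0.0534). Gpx1, glutathione peroxidase, which red cells also hold, was at 661, 1750 and 2131 CPM against 238, 432 and 494 (adjusted p = 0.0731). Erythroid markers were also lower at day 28, and their part in the values of Gpx1 was not tested.

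Of 19 tested clock genes 0 were called (7 unadjusted, 4 by DESeq2). Without overlap 5 lay above normoxia (26.3%) and 3 below (15.8%), against 11.4% and 11.8% of all tested genes. Per1, a clock repressor that glucocorticoids also induce, was at 37.5, 20.5 and 21.3 CPM in normoxia and 142, 98.4 and 48.9 at day 28, and Nfil3, a clock output repressor, at 9.37, 10.2 and 14.0 against 50.6, 72.5 and 18.4 (adjusted p = 0.0628 for each). Day 28 replicate 3 was the lowest of its group in both. In genes of lymphocyte homing and egress, Gpr15 was the 1 called of 26. Itgb7, an integrin of gut homing, was at 162, 101 and 111 CPM in normoxia and 209, 256 and 206 at day 28 (adjusted p = 0.0815). MHC class II genes, 15 tested, had 0 calls by edgeR or DESeq2, 0 at an unadjusted p under 0.05 and none without overlap.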
